A study of Mus musculus with 2 samples.

Results

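The collagen genes were examined in dorsal skin of newborn mice without the short-chain dehydrogenase Sdr9c7, set against wild type skin. They were chosen by name: every probe that the array files annotate to a gene called Col, a number, a and a number, without Col7a1 and Col17a1. This gave 42 genes, read by 64 of the 39417 probes on the array. Of these, 39 genes were measured, meaning that at least 1 probe stood well above background on both arrays, out of 22714 gene names measured in all.

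The groups were Sdr9c7-/- (knockout) and wild type mice, both on a C57BL/6J background and sampled at postnatal day 0. Each genotype had 1 array, to which RNA pooled from 5 animals was hybridised. Differences between genotypes therefore lack a replicate check, and no p-value can be given. The labels call the tissue skin and the design text calls it epidermis. Of 12 dermal fibroblast markers, 12 were measured on both arrays, among them Dcn (decorin) at a relative signal of 70.1 in the knockout and 71.4 in the wild type. Dermal transcripts were thus present, and the dermis is where most collagen of skin is made. The labels do not state which part of Sdr9c7 is missing, so its probe checks the labels only if it lies there. That probe read 0.0479 in the knockout and 0.324 in the wild type, a log2 difference of −2.76.

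Collagens are proteins of 3 chains wound into a triple helix, in which every chain repeats glycine followed by any pair of residues, often proline and hydroxyproline. Fibrillar collagens assemble into the cross-banded fibrils that give the dermis its tensile strength. Collagens of the basement membrane form sheets under the epidermis and around vessels, nerves, fat cells and muscle fibres. Cartilage collagens belong to the matrix of the growing skeleton. The others include microfibrils, molecules that decorate fibrils, and collagens that span the cell membrane.

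The glycine repeat can be seen in the array's own oligonucleotides. Probes were searched on the printed strand, in each reading frame without a stop codon, for glycine codons (GGN) with another glycine codon 9 bases away, and at least 4 such codons were required. The pattern was present in 5 of the 64 collagen probes (7.81%) and in 0.262% of the other 39353 probes, and a match is only a description of the letters. These 5 probes are shown because their letters carry the repeat and because their values bear on how far probes of a gene differ, and they are called repeat probes below. They were not placed on a protein or in an exon. Capitals mark the glycine codons, and positions are those of the array files on mm9.
Col14a1, chr15:55347733-55347792, + strand: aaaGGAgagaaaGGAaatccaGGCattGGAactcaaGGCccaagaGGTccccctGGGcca
Col15a1, chr4:47283786-47283845, + strand: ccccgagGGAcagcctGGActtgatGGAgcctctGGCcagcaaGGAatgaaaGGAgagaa
Col16a1, chr4:129756457-129756516, + strand: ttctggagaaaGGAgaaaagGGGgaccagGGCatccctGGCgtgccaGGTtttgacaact
Col25a1, chr3:130270497-130270556, + strand: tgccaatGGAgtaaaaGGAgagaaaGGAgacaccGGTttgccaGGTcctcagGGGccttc
Col4a4, chr1:82515563-82515622, − strand: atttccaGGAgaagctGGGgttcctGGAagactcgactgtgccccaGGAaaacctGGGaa
The Col4a4 probe has a gap in the repeat, as is known of type IV collagens, whose helix is interrupted. The Col14a1 probe also breaks the spacing, at 1 place where neighbouring marked codons stand closer than 9 bases. In 4 of these 5 genes the repeat probe gave the lowest log2 difference of the gene's measured probes. In Col25a1 another probe was nearly as low, and in Col15a1 a probe without the pattern was lower. Counts of this kind over 5 genes are a description.

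Most collagen transcripts differed little between the arrays. Signals are relative to the 75th percentile of each array, so that 1 equals it, and every difference is on the log2 scale, knockout minus wild type. The median over the 39 measured collagen genes was −0.06, beside −0.04 over all measured genes. At least 2-fold lower in the knockout was 1 collagen gene, Col5a2, against 1.35% of all measured genes, and at least 2-fold higher was 1, Col2a1, against 0.528%. At 1.5-fold, 2 collagens were lower, Col5a2 and Col13a1, where 6.04% of all genes were, and 1 was higher, where 2.36% were. In bulk RNA of this kind, fewer cells of a type and less RNA per cell cannot be told apart.

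Small differences leaned towards lower values in the knockout. Of the 39 genes, 28 were below 0 (71.8%), where 56.9% of all measured genes were. At a 1.2-fold threshold, chosen after the values were seen, 11 collagens were lower (28.2%) beside 19.7% of all genes, and 3 were higher (7.69%) beside 11.4%. Scaling moved the count of signs: after quantile normalization 21 of 39 collagens were below 0 (53.8%) beside 49.4% of all genes, and after median scaling, which shifts every gene alike, 23 (59.0%) beside 48.8%. With quantile normalization 9 collagens were at least 1.2-fold lower (23.1%) beside 16.3% of all genes, and 3 higher (7.69%) beside 14.4%. With cyclic loess 11 were at least 1.2-fold lower (28.2%) beside 16.7%. The scanning software gives each spot an error, which for a measured collagen probe came to between 0.20 and 0.36 on the log2 difference, and 15 genes differed by more than the error of each of their probes. Lower by this measure were 12 of the 39 collagens, where 23.4% of all measured genes were. Higher were 3 of the 39, where 14.7% of all measured genes were.

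**Figure D1:**
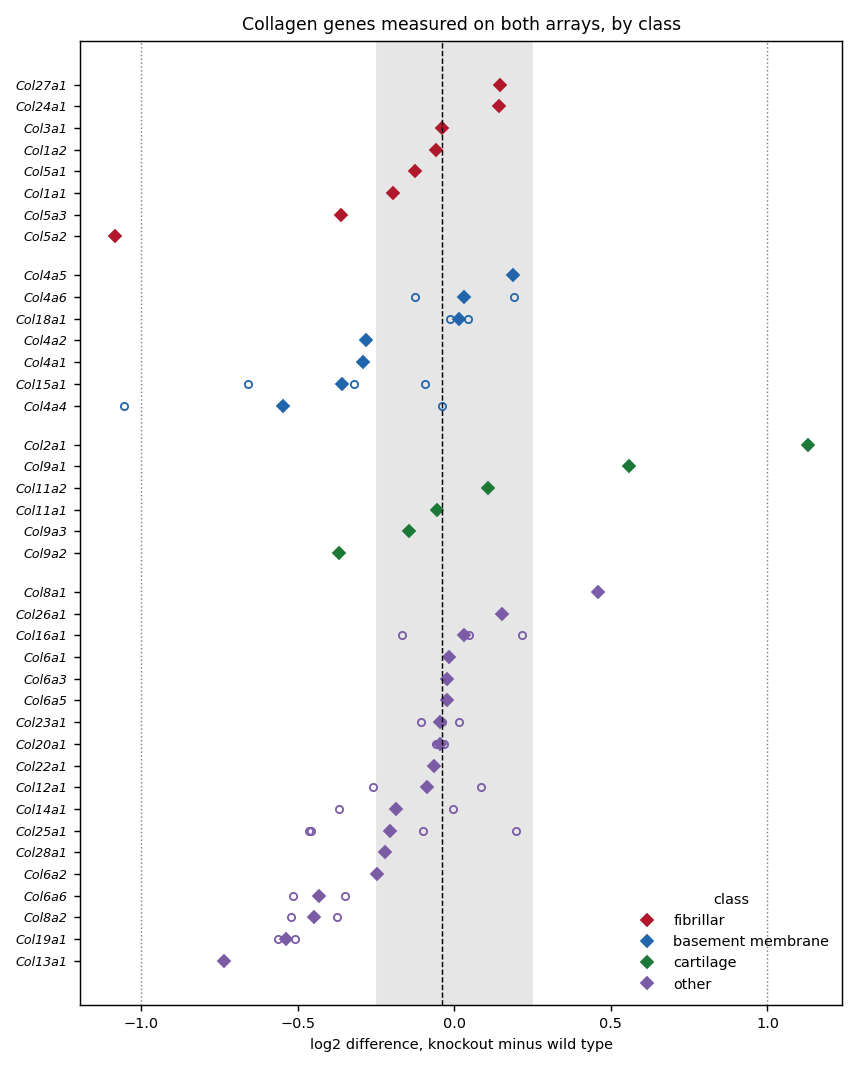
Log2 difference, knockout minus wild type, of the 39 collagen genes measured on both arrays, grouped by class. Diamonds are gene means, open circles single probes where a gene had more than 1, the grey band is the pooled between-probe SD (0.25 to each side of 0), the dashed line is the median of all genes (−0.04) and dotted lines mark 2-fold. Col5a2 and Col2a1 lie beyond the dotted lines, at −1.08 and 1.13.

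The chains of the major dermal fibrils were nearly level. Col3a1, the homotrimeric type III collagen abundant in fetal and newborn dermis, read 58.3 in the knockout and 59.9 in the wild type, a log2 difference of −0.04. Type I collagen, the main fibril of dermis, tendon and bone, is built from Col1a1 and Col1a2. Col1a2 read 125 in the knockout and 130 in the wild type (−0.06), and Col1a1 read 16.2 in the knockout and 18.6 in the wild type (−0.20). These 3 differences were smaller than the pooled SD between probes for the same gene, 0.25 over 5176 genes with several probes. Those of Col1a2 and Col3a1 turned to 0.02 and 0.05 after quantile normalization.

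The type V chains, which start fibrils and limit their width, were further apart. Col5a2, whose product pairs with that of Col5a1 in the common form of the molecule, read 1.58 in the knockout and 3.35 in the wild type. It was 2.12-fold lower in the knockout (−1.08), and 0.973% of all measured genes lay below it. Col5a1 was at −0.13, with 19.4 in the knockout and 21.2 in the wild type. Col5a3, a chain of a rarer form of type V, was at −0.36, with 4.43 in the knockout and 5.69 in the wild type. In humans, mutations of COL5A1 or COL5A2 cause classical Ehlers-Danlos syndrome, with fragile, overstretching skin.

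The Col5a2 value rests on 1 spot, in column 84, near the edge of the array. The 69 measured spots around it, within 8 rows and 4 columns, had a median of −0.04. Pixels of the spot varied with an SD of 0.225 of their mean in the knockout and 0.164 in the wild type. The knockout value was the highest among collagen probes with a relative signal above 1 there, followed by 0.147 for a Col4a6 probe. Every setting that was tried left Col5a2 between −1.10 and −1.04. All settings reread the same spot, so their closeness does not check the value. No second Col5a2 probe was there to set beside it.

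The 2 other fibrillar genes, Col24a1 and Col27a1, encode collagens known mainly from bone and cartilage. Col24a1 read 0.111 in the knockout and 0.101 in the wild type (0.14), and Col27a1 read 0.464 in the knockout and 0.419 in the wild type (0.15). Both were slightly higher in the knockout in each setting that measured them. Over all 8 fibrillar genes the median was −0.09, with 6 below 0 (all genes, 56.9%).

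Among collagens of the basement membrane, Col4a1 and Col4a2 were lower in the knockout and Col4a5 was slightly higher. Col4a1 and Col4a2 form the α1α1α2 molecule found in nearly every basement membrane, vessels included. Col4a1 was the best measured collagen on the array, since its probe was printed 10 times. Its spots read between 7.76 and 8.51 in the knockout and between 9.61 and 10.4 in the wild type, so the spots of the arrays did not overlap. The mean log2 difference was −0.29 with an SD of 0.026 over the 10 spots, and 10 of 10 spots were lower. Those spots share 1 RNA pool per genotype, so their SD is printing and scanning error alone. The gene was 1.22-fold lower in the knockout.

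**Figure D2:**
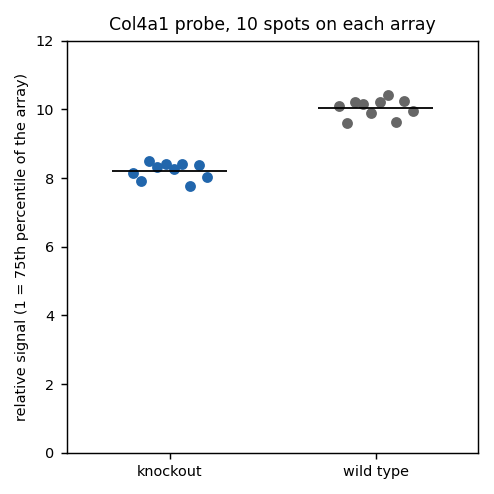
Relative signal of the 10 spots of the Col4a1 probe on the knockout array (left) and the wild type array (right). Points are spots, lines are means, and the axis starts at 0. The knockout spots lie between 7.76 and 8.51, below every wild type spot.

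Col4a2 read 5.71 in the knockout and 6.95 in the wild type, a log2 difference of −0.28. The partner chains therefore differed from each other by 0.0075 on the log2 scale, the smallest spread of 8 sets of partner chains. That gap is far below the probe error of 0.20, so its rank is a description. Col6a1 (−0.016) and Col6a3 (−0.024), within the type VI set, were about as close. After normexp correction Col4a1 was at −0.27 and Col4a2 at −0.31. The genes lie head to head on chromosome 8, and in RefSeq (GRCm38.p6) their starts are 21 bases apart on opposite strands. The difference of Col4a1 lay between −0.29 and −0.24 over the settings tried, and that of Col4a2 between −0.31 and −0.24.

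Col4a5 and Col4a6, chains of the α5α5α6 molecule of epidermal and smooth muscle basement membranes, lie head to head on the X chromosome with starts 1343 bases apart. Col4a5 read 1.09 in the knockout and 0.959 in the wild type (0.19). Col4a6 averaged 0.03, from 1 probe at 0.19 and another at −0.13. The probe at 0.19 was the brighter, with 1.18 in the knockout and 1.03 in the wild type. It lay in a band of the slide where dim spots scattered more between the arrays. The other probe read 0.0678 in the knockout and 0.0740 in the wild type. Without the bands the dimmer probe alone was left, and the gene stood at −0.12.

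Col4a4, a chain of the α3α4α5 molecule of kidney glomeruli, averaged −0.55. Its repeat probe, printed above, read 0.0111 in the knockout and 0.0231 in the wild type (−1.05), and lay in such a band. A second probe read 0.0387 in the knockout and 0.0397 in the wild type (−0.04), so the lower value of the gene came from 1 probe. Its partner Col4a3 was not well above background on either array.

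Col15a1 and Col18a1 encode the collagens that anchor basement membranes to the tissue beneath and carry endostatin domains. Col18a1 was level, with probes at −0.01 and 0.04 and a mean relative signal of 6.84 in the knockout and 6.77 in the wild type. Col15a1, typical of capillaries, muscle and fat, averaged −0.36, at 0.0567 in the knockout and 0.0726 in the wild type, with 3 of 3 probes below 0. The repeat probe gave −0.32. The other pair share 48 of their 60 bases and still gave −0.66 and −0.09, a spread wider than the gene's difference.

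Cartilage collagens lay on both sides of 0. Col2a1, the main fibril of cartilage, read 0.0553 in the knockout and 0.0253 in the wild type. It was 2.19-fold higher in the knockout (1.13), and 99.6% of measured genes lay below it. The value comes from 1 dim spot outside the scattering bands, whose 94 measured neighbours had a median of −0.01. After normexp background correction the difference was 0.50.

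The type IX chains, which sit on type II fibrils, differed in direction. Col9a1 read 0.111 in the knockout and 0.0756 in the wild type (0.56). Col9a2 read 0.117 in the knockout and 0.151 in the wild type (−0.37). Col9a3 read 0.00873 in the knockout and 0.00965 in the wild type (−0.14). A second Col9a1 probe was not well above background on either array, and averaging it in brought the gene to −0.01.

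The type XI chains, which nucleate cartilage fibrils, were near 0: Col11a1 was at −0.05, with 0.212 in the knockout and 0.220 in the wild type, and Col11a2 at 0.11, with 0.0196 in the knockout and 0.0182 in the wild type. Col10a1, the collagen of hypertrophic chondrocytes, was not well above background on either array. The class median was 0.03 over 6 genes, with 3 below 0 (all genes, 56.9%).

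Other cartilage markers lay on both sides of 0. Of 13 marker genes, 6 were measured, with a median of −0.17, 4 below 0 (all genes, 56.9%) and summed signals of 1.22 in the knockout and 1.12 in the wild type. Sox9, which is also a hair follicle factor, made up most of both sums, with 0.962 in the knockout and 0.857 in the wild type (0.17). Comp was at 0.24. Below 0 were Snorc (−0.70, and dim), Acan, the cartilage proteoglycan aggrecan (−0.33), Chad (−0.25) and Matn4 (−0.08). Hapln1 was well above background in the knockout alone, and Prg4 in the wild type alone, by 1 of 2 probes. Matn1, Matn3, Cnmd, Epyc and Ucma were not well above background on either array.

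Type VI collagen, the beaded microfibril around cells, was level in 2 of its 3 classical chains. Col6a1 read 42.2 in the knockout and 42.7 in the wild type (−0.02), and Col6a3 read 41.5 in the knockout and 42.2 in the wild type (−0.02). Col6a2 was at −0.25, with 5.909 in the knockout and 7.005 in the wild type. Among the later-found chains, which can take the place of the α3 chain, Col6a6 averaged −0.43 over probes at −0.35 and −0.51, and Col6a5 was at −0.02. Col6a4 had 1 probe well above background in the knockout alone, at 0.00699. That was 1.24-fold the lowest signal counted as well above background in the wild type, 0.00563. The error of this probe was 0.50 on the log2 difference, so the fold is no firm lower limit. A second Col6a4 probe was not well above background on either array (0.09).

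Of 6 collagens that decorate fibrils (the FACIT group), 5 were below 0 (all genes, 56.9%), Col20a1 and Col22a1 close to the median of all genes. At least 1.2-fold lower was 1, Col19a1, where 19.7% of all genes were. Col19a1, a collagen of basement membrane zones and developing muscle, averaged −0.54, and its probes gave −0.51 and −0.56. Its signal was dim, with the brighter probe at 0.00931 in the knockout and 0.0138 in the wild type. Col14a1, an abundant fibril-decorating collagen of dermis, averaged −0.19. Its repeat probe read 0.426 in the knockout and 0.550 in the wild type (−0.37), while the other read 10.09 in the knockout and 10.11 in the wild type and was level.

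Col12a1, its relative in tendon and fascia, gave −0.26 with the probe at 2.75 in the knockout and 3.29 in the wild type, and 0.09 with a dim probe. Col16a1 averaged 0.03, from −0.17 in the repeat probe to 0.22. Col22a1, found at tissue junctions such as that of muscle and tendon, was at −0.06. Col20a1 was at −0.05.

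The short-chain type VIII collagens of vessel and corneal sheets lay on opposite sides of 0. Col8a1 read 0.162 in the knockout and 0.118 in the wild type and was 1.37-fold higher in the knockout (0.46). Col8a2 averaged −0.45, with probes at −0.37 and −0.52. Both directions held in each setting that measured these genes.

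Of the collagens that span the cell membrane, Col13a1, a component of neuromuscular junctions and focal adhesions, read 0.0213 in the knockout and 0.0354 in the wild type. It was 1.66-fold lower in the knockout (−0.73), from 1 spot in a scattering band of rows, so that leaving the bands out removed the gene. Col23a1 was at −0.04 over 3 probes. Col25a1 averaged −0.21 over 4 probes, from −0.46 in the repeat probe to 0.20. Outside this membrane-spanning group, Col26a1 read 10.4 in the knockout and 9.38 in the wild type (0.15). Col28a1, a collagen of Schwann cell basement membranes and also outside it, was at −0.22 and dim.

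**Figure D3:**
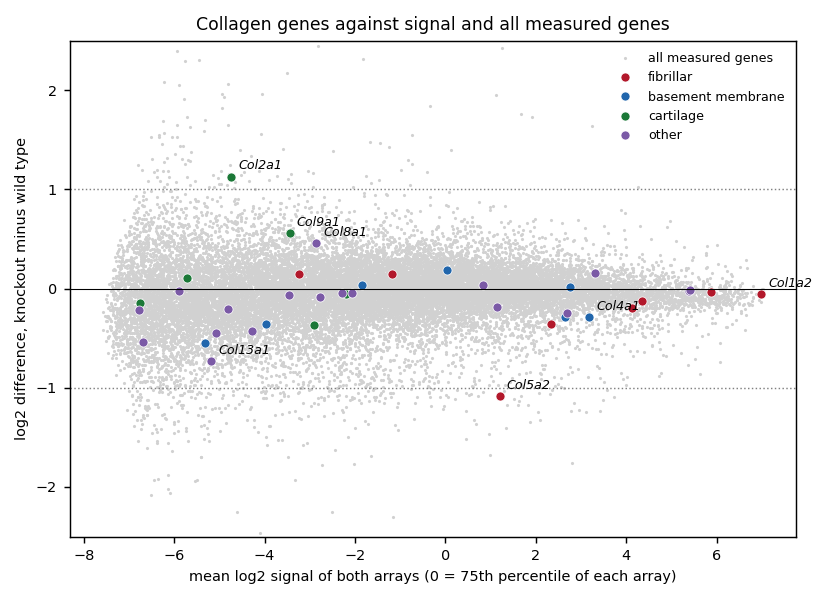
Log2 difference, knockout minus wild type, against the mean log2 signal of both arrays, for 22714 measured genes (grey) and the collagens (coloured by class). The vertical axis is limited to 2.5 on either side of 0, which leaves out 21 genes and no collagen. Grey points spread more at low signal, where Col2a1 and Col13a1 lie, than where Col5a2 lies.

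Set side by side, the class medians were −0.09 for 8 fibrillar genes, −0.28 for 7 genes of the basement membrane, 0.03 for 6 cartilage genes and −0.08 for 18 others. The ranges of the classes overlapped. The median of the basement membrane class lay 0.19 below that of the fibrillar class and 0.31 below that of the cartilage class; no test of these differences was possible. The lower basement membrane median did not hold when each gene was read by its brightest probe (−0.04), nor among probes brighter than the median (0.015, over 5 genes), and was −0.12 without the scattering areas of the slide. Partner chains differed by as little as 0.0075 for Col4a1 and Col4a2 and by as much as 0.96 within type V.

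The genes that make and finish collagen were close to level. Of 21 genes that fold and modify the chains, 2 were at least 1.2-fold lower and 2 higher in the knockout, with a median of −0.01. Of all genes 19.7% were at least 1.2-fold lower and 11.4% higher, with a median of −0.04, and the shares in this list and the next 3 can be read against these. The lowest were the galactosyltransferase Colgalt1 (−0.39), the prolyl hydroxylase P4ha3 (−0.31) and the lysyl hydroxylase Plod1 (−0.15). The highest were the prolyl hydroxylase P4ha1 (0.31), the disulfide isomerase Pdia4 (0.31) and Colgalt2 (0.21). Of 11 measured genes for propeptide removal and crosslinking, 2 were at least 1.2-fold lower, near the share of all genes, and 0 higher, with a median of −0.09. The enhancer of procollagen cleavage Pcolce2 stood at −0.41, and the crosslinking lysyl oxidases Lox and Loxl3 at −0.28 and −0.26. Loxl4, Adamts14 and Tll1 were at 0.15, 0.11 and 0.02.

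Genes of collagen breakdown and binding also lay on both sides. Among 15 measured turnover genes 3 were at least 1.2-fold lower, near the 19.7% of all genes. These were the protease inhibitors Timp4 (−0.45) and Timp3 (−0.40) and the collagen uptake receptor Mrc2 (−0.37). The collagenase Mmp8 (0.45) and the protease Mmp19 (0.32) were at least 1.2-fold higher. Of 8 measured collagen receptors, the integrin chain Itga1 (−0.26) was at least 1.2-fold lower, and Itga10 (0.29) and the receptor kinase Ddr1 (0.28) higher.

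Proteins that bind collagen fibrils leaned lower, with 14 of 17 below 0, where 56.9% of all genes were, and a median of −0.14. At least 1.2-fold lower were 4 of 17, where 19.7% of all genes were. After quantile normalization 13 of 17 were below 0, where 49.4% of all genes were. At least 1.2-fold lower were then 3 of 17, near the 16.3% of all genes. Thbs2 (−0.45), Tnxb (−0.40), which encodes the dermal glycoprotein tenascin-X, and Aspn (−0.36) were lowest, and Kera (0.36), Comp (0.24) and Lum (0.07) highest. Other basement membrane components divided evenly, 9 of 18 below 0. The lowest were Nid1 (−0.34) and Nid2 (−0.27), which link laminin to type IV collagen, and Hspg2 (−0.17), perlecan. The highest were Frem1 (0.43), which attaches epidermis to dermis, Lama1 (0.29) and Lama3 (0.27), a chain of the epidermal laminin-332.

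Markers of cell types that make particular collagens differed between the arrays as well. Of all measured genes 56.9% were below 0, and the counts here and in the next paragraph can be read against this share. Fibroblast markers had a median of 0.02, with 6 of 12 below 0 and a summed signal of 205 in the knockout and 214 in the wild type. Endothelial markers were below 0 in 8 of 9 cases, with a median of −0.21 and a sum of 17.97 in the knockout and 23.2 in the wild type. Skeletal muscle markers were below 0 in 12 of 12, with a median of −1.03 and a sum of 132 in the knockout and 230 in the wild type. Adipocyte markers were below 0 in 10 of 10, with a median of −0.71 and a sum of 57.9 in the knockout and 88.3 in the wild type. Basal keratinocyte markers had a median of 0.10, with 2 of 8 below 0 and a sum of 198 in the knockout and 177 in the wild type. Vessels, muscle and fat are known to make Col4a1, Col4a2 and Col15a1, and basal keratinocytes Col4a5 and Col4a6. The part of these markers in the collagen differences was not tested.

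Smooth muscle and pericyte markers had 7 of 9 below 0 and a median of −0.49, Schwann cell markers 6 of 8 and −0.18, and tendon and fascia markers 4 of 6 and −0.33. Their sums were 19.0 in the knockout and 24.5 in the wild type for smooth muscle, 7.60 in the knockout and 9.04 in the wild type for Schwann cells, and 1.77 in the knockout and 2.36 in the wild type for tendon.

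**Figure D4:**
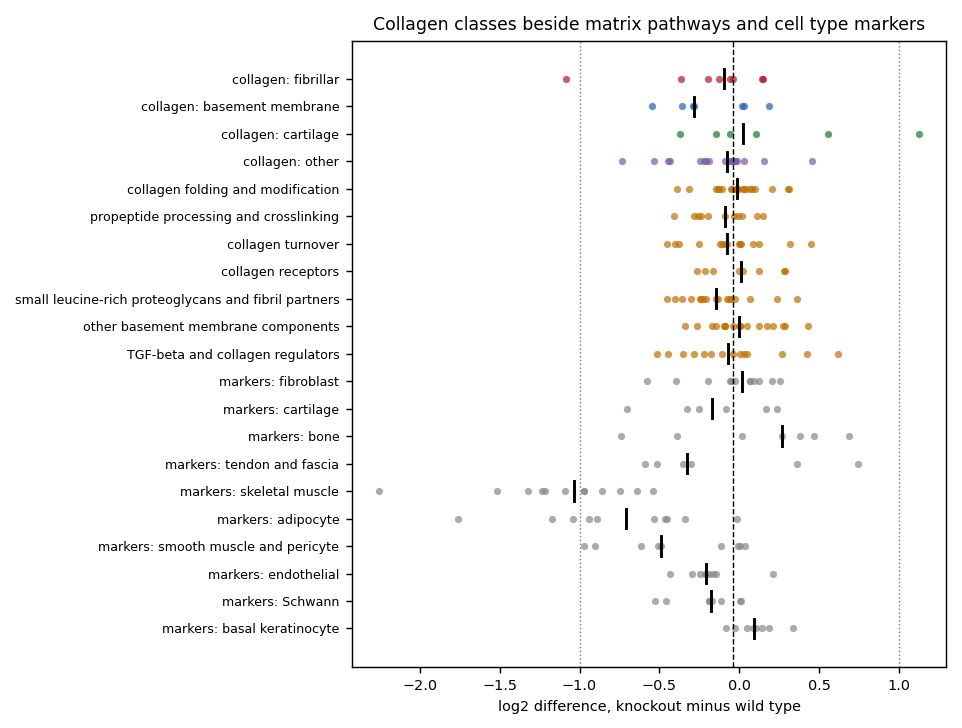
Log2 difference, knockout minus wild type, of each measured gene in the collagen classes (coloured), the matrix pathways (orange) and the cell type marker lists (grey). Black bars are list medians, the dashed line is the median of all genes (−0.04) and dotted lines mark 2-fold. Muscle and adipocyte markers lie furthest to the left, with medians of −1.03 and −0.71.

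Over all 10 other settings of processing, 25 of the 39 measured collagens had the same sign in each setting that measured them, 19 of them lower and 6 higher in the knockout. Part of this agreement was given in advance. The series matrix holds the same intensity over a constant and gave the reported values again, and median scaling shifted every gene alike. The same count was not made over all genes. Of 13 collagens with several measured probes, 7 had all probes on the same side of 0, and 26 collagens were read by 1 measured probe. For those 26, taking the brightest or the median probe could not change the value.

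**Figure D5:**
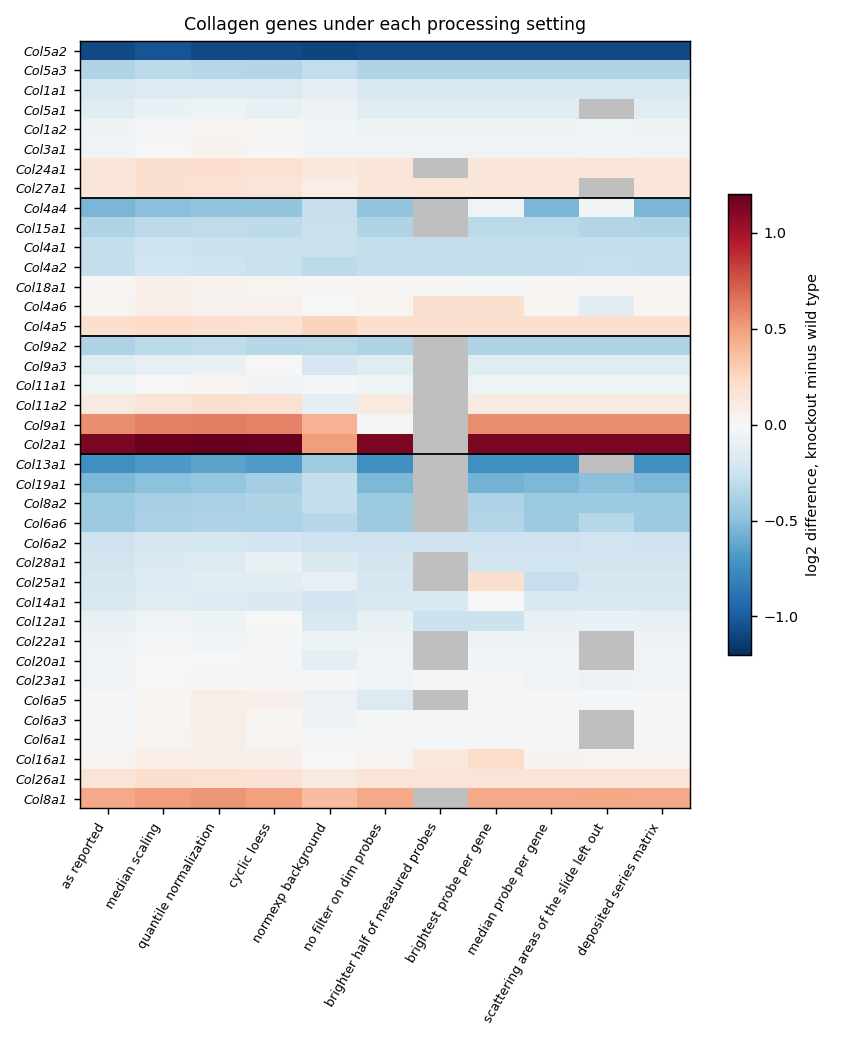
Log2 difference, knockout minus wild type, of each measured collagen (rows, by class, separated by black lines) under the reported setting and 10 others (columns). Blue is lower and red higher in the knockout, and grey cells had no measured probe. Col5a2 stays blue across the row, between −1.10 and −1.04, while Col2a1 is paler after normexp correction, at 0.50.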

How the data were processed

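Spot intensities were deposited by the authors. The software was Agilent Feature Extraction 11.5.1.1, per the submitters' processing notes. Per the file headers, the processed intensity has background subtracted and a spatial trend removed. The labels' protocols give 200 ng of total RNA per labelling. The deposited series matrix holds a ratio, found to be that processed intensity over 1 constant per array, 2080 for the knockout and 1906 for the wild type. Its column medians were 0.0840 for the knockout and 0.0855 for the wild type. No source used here says how it was made.

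Control spots and 192 outlier spots were left out, processed intensities were taken to log2, spots of a probe were averaged and each array's 75th percentile was subtracted. Well above background were 76.8% of probes in the knockout and 74.9% in the wild type, with 0 saturated. Genes were given the mean of their probes that stood well above background on both arrays. The number of arrays, 1 per genotype, limits the precision. Of all probes, 28319 were named by RefSeq accession, 2209 by current symbol, 174 by synonym and 8715 as in the files. Collagens kept the file's name. Bands and a block of scattering spots were located from all spots.

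Normexp, quantile normalization and loess used limma 3.58.1 and the rest Python 3.11.15. Alternatives were median scaling, quantile normalization, cyclic loess, normexp correction (offset 50), no filter on dim probes, probes brighter than the median, the brightest or the median probe, scattering areas left out, and the series matrix. The calculation was tested on simulated data. All collagens could be named, and of each other pathway list up to the 3 highest and 3 lowest, of which 1 gene is not reported here. The members and lists were chosen with earlier results of these data known.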

Additional observations from a re-analysis of the deposited data

How the results depend on the processing

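Over the settings, the median lay between −0.10 and −0.02 for all collagens, −0.13 and −0.02 for the fibrillar class, and −0.18 and −0.02 for the others. The cartilage median (0.03) lay between −0.07, after normexp correction, and 0.11. The basement membrane median (−0.28) turned to 0.015 among probes brighter than the median, where 5 of its genes were left, and cartilage collagens had no value there. At least 1.5-fold higher was 1 of 39 collagens, where 2.36% of all genes were. This became 2 with median scaling (all genes, 2.89%), quantile normalization (3.01%), cyclic loess (3.01%) and no filter on dim probes, over 42 collagens (6.14%). It became 0 with normexp correction (0.766%) and among probes brighter than the median, over 20 collagens (1.19%). At least 1.5-fold lower were 2 collagens, where 6.04% of all genes were. This became 1 with normexp correction (2.69%), among probes brighter than the median (2.95%) and without the scattering areas, over 32 collagens (5.5%). In these settings Col13a1 was either at −0.42, after normexp correction, or not measured. The share of all genes thus moved between settings too. Scalings shifted the median of all genes by at most 0.05. No collagen probe lay in the block of scattering spots and 13 lay in scattering bands. No paired analysis was possible because each genotype had 1 array. Low signal limits Col19a1, Col28a1, Col9a3 and the dimmest probes of Col8a2, Col12a1 and Col25a1 among others, and probe error exceeds many of the differences given.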

Other observations

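Regulators of collagen transcription lay on both sides of 0, with 8 of 14 below it (all genes, 56.9%) and a median of −0.07. Scx (−0.51), also in the tendon list, and the matricellular gene Ccn2 (−0.45) were lowest in the knockout. Ccn1, a matricellular relative of Ccn2, read 4.85 in the knockout and 3.16 in the wild type (0.62), and Smad7 (0.42) and Smad2 (0.27) followed. Bone markers had a median of 0.27 over 7 measured genes with 5 above 0, from Spp1 at −0.74 to Ibsp at 0.69. Their summed signals were 0.564 in the knockout and 0.522 in the wild type.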
